A study of Mus musculus with 22 samples.

Results

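Imprinted genes are genes that are read mainly from the copy inherited from one parent. A list of 42 of them was followed through adipocyte differentiation of C3H 10T1/2 cells, a mouse mesenchymal line, in cells that carried DNMT3A as WT, as the single mutant W330R or as W330R-R181E, called the double mutant below. The genes were taken by name, 22 of them known as paternally expressed, 17 as maternally expressed and 3 (Grb10, Gnas and Ddc) as expressed from a parental copy that depends on the isoform. The count table held a row for 35 of the 42, among 30170 genes in all. The 7 without a row, H19, Airn, Meg3, Rian, Mirg, Kcnq1ot1 and Peg13, are noncoding RNAs and were not analysed here. Parental expression is known from mouse tissues and was not measured, because the counts do not separate the parental copies.

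RNA was sequenced in 22 libraries, 2 for each of 11 conditions. Undifferentiated cells and days 2, 4 and 6 in adipocyte medium were sampled for WT and W330R, and days 2, 4 and 6 for W330R-R181E. All cells of days 2 to 6 received isobutylmethylxanthine, dexamethasone, insulin and troglitazone for 2 days and insulin after that, and all lines expressed DNMT3A1 as WT or mutant beside what the parent line has. The labels name the second substitution R181E, whereas the column names of those 6 libraries give another residue. The columns of the 4 undifferentiated libraries name genotype and replicate but no day, and they follow another naming pattern than the other 18. Whatever separates those 4 libraries from the rest, stage or batch, therefore cannot be told apart. The labels do not say whether the 2 libraries of a condition are separate cultures or cell lines, so p-values measure only the spread between these libraries, which may be technical.

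DNMT3A is a de novo DNA methyltransferase, and in germ cells it lays down the methylation marks that later silence one parental copy of an imprinted gene. After fertilization those marks are kept by other proteins, among them the zinc finger protein ZFP57, its partner TRIM28 and the maintenance methyltransferase DNMT1. Imprinted genes lie in clusters with a shared control region, and many act on growth, on insulin and IGF signalling or on mesenchymal and adipose development. Mest and Peg3 are known from adipose tissue and mesenchymal cells, Dlk1 is a marker of preadipocytes, and Grb10 restrains the insulin receptor.

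DNA methylation was not measured in these libraries. The upstream sequences of 7 members are shown because their transcripts carry the results below. Peg3, Mest and Ndn were low before differentiation and high after it, Peg12 and Ube3a share the Snrpn-Ube3a locus, and Grb10 and Ddc are neighbours. Peg3, Mest and Ndn were chosen for display after their values were seen. Each line holds the 250 bases before a transcription start in the RefSeq annotation of the GRCm38.p6 assembly, 5′ to 3′, and capitals mark CpG, the dinucleotide that DNMT3A methylates. The coordinates belong to that assembly and not to GRCm39, the build named for the counts.
Peg3 (chr7:6730420-6730669, - strand): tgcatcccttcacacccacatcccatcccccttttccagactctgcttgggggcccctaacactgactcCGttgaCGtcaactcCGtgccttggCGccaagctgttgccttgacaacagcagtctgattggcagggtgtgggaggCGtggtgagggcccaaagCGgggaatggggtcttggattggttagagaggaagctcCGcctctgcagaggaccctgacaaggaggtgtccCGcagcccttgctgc
Mest (chr6:30737800-30738049, + strand): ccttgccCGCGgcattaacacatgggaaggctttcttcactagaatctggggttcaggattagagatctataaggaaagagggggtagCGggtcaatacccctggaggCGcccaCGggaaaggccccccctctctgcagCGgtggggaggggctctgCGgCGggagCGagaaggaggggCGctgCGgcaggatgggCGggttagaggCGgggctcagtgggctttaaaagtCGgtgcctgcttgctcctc
Ndn (chr7:62348027-62348276, + strand): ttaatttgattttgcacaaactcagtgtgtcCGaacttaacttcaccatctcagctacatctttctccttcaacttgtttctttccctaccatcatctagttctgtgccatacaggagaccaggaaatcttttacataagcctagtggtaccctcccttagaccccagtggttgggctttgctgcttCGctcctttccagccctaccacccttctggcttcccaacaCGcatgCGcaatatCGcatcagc
Peg12 (chr7:62464511-62464760, - strand): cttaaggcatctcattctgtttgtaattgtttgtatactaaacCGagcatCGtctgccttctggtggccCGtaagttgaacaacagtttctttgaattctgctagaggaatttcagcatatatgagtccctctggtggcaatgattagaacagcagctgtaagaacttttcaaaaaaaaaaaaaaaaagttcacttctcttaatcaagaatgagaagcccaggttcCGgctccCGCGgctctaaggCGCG
Ube3a (chr7:59228500-59228749, + strand): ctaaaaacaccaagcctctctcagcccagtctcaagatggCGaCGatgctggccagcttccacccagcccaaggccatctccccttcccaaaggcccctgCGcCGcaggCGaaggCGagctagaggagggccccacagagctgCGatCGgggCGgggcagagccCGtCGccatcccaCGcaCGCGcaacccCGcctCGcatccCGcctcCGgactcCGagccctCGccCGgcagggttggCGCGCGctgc
Grb10 (chr11:12037421-12037670, - strand): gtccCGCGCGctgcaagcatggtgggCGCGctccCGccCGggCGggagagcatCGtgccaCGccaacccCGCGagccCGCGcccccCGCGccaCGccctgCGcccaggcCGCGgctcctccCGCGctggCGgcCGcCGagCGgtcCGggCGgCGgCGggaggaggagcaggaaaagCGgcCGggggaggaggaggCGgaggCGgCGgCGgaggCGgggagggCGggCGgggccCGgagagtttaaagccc
Ddc (chr11:11890409-11890658, - strand): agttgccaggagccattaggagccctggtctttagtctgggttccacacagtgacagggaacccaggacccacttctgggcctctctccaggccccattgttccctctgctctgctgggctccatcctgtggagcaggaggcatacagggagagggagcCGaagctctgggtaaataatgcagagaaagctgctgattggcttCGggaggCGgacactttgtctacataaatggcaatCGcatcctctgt

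The CpG density of these windows ranged widely. The Grb10 window held 40 CpG, that of Ube3a 24, that of Mest 14, those of Peg3 and Peg12 8 each, that of Ndn 5 and that of Ddc 4. Grb10 and Ddc have another RefSeq start each, and Mest has 3 in all. Where a gene had several starts, the one with the most CpG in its 300-base window was printed. The 250 bases before the other start held 8 CpG in Grb10 and 1 in Ddc, and those before the other starts of Mest held 7 and 14. RefSeq windows of 300 bases were found for 33 of the 42 genes, 50 windows in all. Their median was 11.5 CpG, beside 7 in all 32851 promoter windows of that length. The 16 of these genes that were tested below had 26 windows with a median of 16.5 CpG. TGCCGC, the letters ZFP57 recognizes when they are methylated, was searched on both strands. It was present in 11.6% of all windows, in 22% of those of the imprinted genes and in 26.9% of those of the tested genes. Among the genes printed above, it was held by a window of Grb10 and by the overlapping Mest windows that start at 30737800 and 30737803. The search used 300 bases, and in Grb10 the motif lies outside the 250 bases printed. Overlapping windows are counted separately in these shares. These are counts of letters and say nothing of binding or of methylation.

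Of the 35 imprinted genes with a row, 22 reached a mean of 1 CPM (the reads of a gene per 1000000 reads on genes in that library) in at least 1 condition. They were 12 of 19 paternally expressed, 7 of 13 maternally expressed and all 3 isoform-dependent genes. The same 22 passed the filter on low counts and entered the tests. A gene could pass through the condition in which it was high, so those 22 do not stand for the whole list. The member closest above the limit was Rtl1, a retrotransposon-derived gene of the Dlk1-Dio3 locus, at 1.04 CPM in W330R on day 6. The closest below were Slc38a4 at 0.417 CPM in undifferentiated W330R and Asb4 at 0.387 CPM in WT on day 4. With both libraries of a condition required to reach 1 CPM, the number was 21.

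The 13 genes below the limit had few reads or none. Usp29, which shares the promoter region of Peg3, had no read in any library. Dlk1 (Pref-1) had at most 3 reads in a library, Snrpn, Magel2, Phlda2 and Gatm at most 2, and Cdkn1c and Nap1l5 at most 1. Dio3 and Ascl2 reached 5 reads, Slc38a4 6, Zim1 9 and Asb4 12. With totals of 8859501 to 47453908 reads per library, such numbers do not allow a comparison between conditions. Peg3 and Usp29 thus differed within 1 locus, as did Slc22a18 and Cd81 against Cdkn1c, Phlda2 and Ascl2 in the Kcnq1ot1 cluster, and Ndn, Peg12 and Ube3a against Snrpn and Magel2 in the Snrpn-Ube3a locus. Snrpn shares 34.5% of its 31-base sequences with other annotated genes, most with Gm38393. It overlaps Gm38393 and Snurf, which have rows of their own, so its reads could have been counted there.

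The 22 expressed genes followed different courses (the colour map of all libraries). CPM is not scaled to transcript length, so levels are compared between libraries of the same gene and not between genes. Gnas, the stimulatory G protein subunit with its alternative transcripts, lay between 608 and 1329 CPM over the 22 libraries. Igf2r, the receptor that clears IGF2, lay between 244 and 552 CPM, and Cd81, a tetraspanin, between 178 and 394 CPM. Those genes and Impact, Copg2, Trappc9 and Ube3a were above 1 CPM in all 11 conditions, as were Grb10, Sgce and Zrsr1. Ddc, an amino acid decarboxylase, reached 1 CPM in 2 conditions and Rtl1 in 1. Nnat, a small membrane protein, stayed between 0.562 and 3.08 CPM, and neither it nor Impact (71.0 to 167 CPM) passed the main test in any comparison below. With the replicate number as a block, an alternative given at the end, Impact was called in WT between day 6 and day 2.

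**Figure D1:**
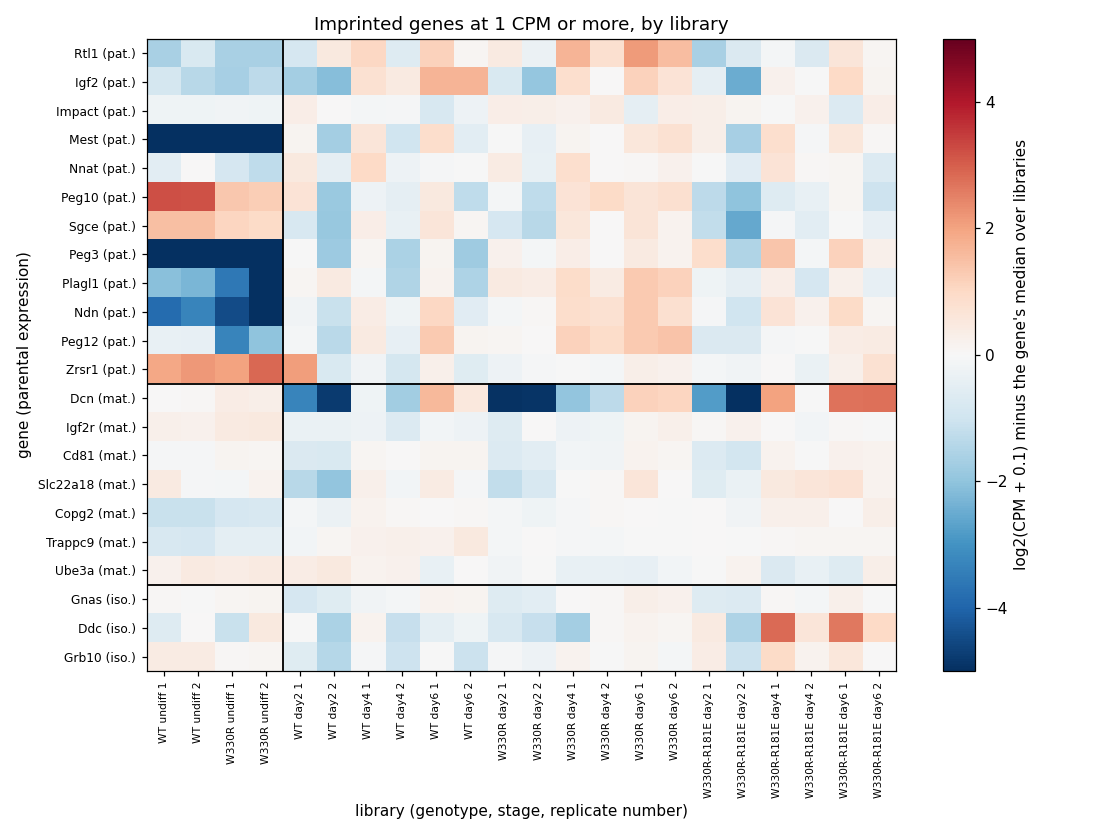
Levels of the 22 imprinted genes at 1 CPM or more, as log2(CPM + 0.1) minus the gene's median over the 22 libraries, with genes grouped by parental expression (horizontal lines) and undifferentiated libraries left of the vertical line. Peg3, Mest, Ndn and Plagl1 are low and Peg10 and Zrsr1 high in the undifferentiated libraries, and Dcn is low on day 2.

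Between undifferentiated cells and day 6 Peg3, Mest and Ndn rose and Zrsr1 fell in both genotypes sampled. In WT, 12 of the 22 tested genes differed, 8 higher and 4 lower on day 6, beside 49.3% of all 14520 tested genes, 25.5% higher and 23.8% lower (edgeR quasi-likelihood test, Benjamini-Hochberg adjusted p under 0.05). In W330R 10 of 22 were called, 8 higher and 2 lower, beside 38.5% of all genes, 20.2% higher and 18.4% lower. By parental expression, 9 of 12 paternally and 3 of 7 maternally expressed genes were called in WT, and 8 of 12 and 2 of 7 in W330R. In bulk RNA, a change in the number of cells that express a gene and a change in RNA per cell cannot be told apart.

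Peg3 encodes a zinc finger protein. It was at 0.0838 and 0.126 CPM in the 2 undifferentiated WT libraries and at 0 and 0.112 CPM in those of W330R, 4 reads and 1 read in all. On days 2 to 6 every library was between 10.6 CPM, in WT library 2 on day 2, and 98.9 CPM, in W330R-R181E library 1 on day 4. The undifferentiated and differentiating libraries did not overlap. The pooled CPM was 219-fold higher on day 6 than before differentiation in WT (exact 95% counting interval 85.2 to 805) and 1064.5-fold higher in W330R (191 to 42057). Both steps were called (adjusted p = 0.000306 and 0.000363, edgeR quasi-likelihood). These intervals cover counting error only.

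Mest (Peg1), a hydrolase-fold protein, also rose. It was at 1.17 and 0.801 CPM in undifferentiated WT and at 1.03 and 0.787 CPM in undifferentiated W330R. On day 6 the values were 246 and 92.6 CPM in WT, 203 and 232 CPM in W330R, and 202 and 143 CPM in W330R-R181E. No undifferentiated library came near the lowest library of days 2 to 6, which held 42.1 CPM. The log2 fold change between day 6 and undifferentiated cells was 7.37 (SE 0.89, adjusted p = 1.73e-05, edgeR quasi-likelihood) in WT and 7.70 (SE 0.92, adjusted p = 3.78e-05) in W330R.

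Ndn encodes necdin, a MAGE family protein of the Snrpn-Ube3a locus. It stood at 1.17 and 1.73 CPM in undifferentiated WT and at 0.713 and 0.45 CPM in undifferentiated W330R. By day 6 it had 37.1 and 12.1 CPM in WT and 45.2 and 31.5 CPM in W330R, with no overlap between the stages. The log2 fold change was 3.93 (SE 0.52, adjusted p = 3.81e-05, edgeR quasi-likelihood) in WT and 5.83 (SE 0.61, adjusted p = 1.37e-05) in W330R. Snrpn and Magel2 of the same locus stayed at 2 reads or fewer in every library, with the limit on the reads of Snrpn given above.

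Plagl1 (Zac1), a zinc finger transcription factor, moved the same way. Undifferentiated WT held 1.51 and 1.31 CPM, and WT on day 6 held 7.59 and 2.23 CPM, a log2 fold change of 1.69 (SE 0.57, adjusted p = 0.0241, edgeR quasi-likelihood). This call was lost when WT day 6 library 1 (log2 fold change 0.67) or either undifferentiated library was left out, and when only the conditions compared were fitted (adjusted p = 0.0771). In W330R the gene went from 0.476 and 0.112 CPM to 16.5 and 14.8 CPM, a log2 fold change of 5.44 (SE 0.72, adjusted p = 7.79e-05).

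Peg10 and Sgce, a retrotransposon-derived gene and the epsilon-sarcoglycan gene beside it, were lower after differentiation in WT. Peg10 fell from 29.9 and 29.5 CPM to 4.51 and 1.25 CPM (log2 fold change -3.48, SE 0.69, adjusted p = 0.000904, edgeR quasi-likelihood). Sgce fell from 51.8 and 51.7 CPM to 27.4 and 19.2 CPM (log2 fold change -1.24, SE 0.36, adjusted p = 0.0114). In W330R the corresponding log2 values were -0.71 and -0.76 and did not pass the test (adjusted p = 0.394 and 0.109). Undifferentiated W330R held 8.09 and 7.42 CPM of Peg10, below both WT libraries, but this difference did not pass either (log2 fold change -1.97, adjusted p = 0.172). Whether the step differed between the genotypes was tested and not called for Peg10 (log2 difference 2.77, adjusted p = 0.112) or Sgce (0.48, adjusted p = 0.706).

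Zrsr1, a U2AF-related gene in an intron of Commd1, was at 136 and 159 CPM in undifferentiated WT and at 146 and 263 CPM in undifferentiated W330R. On day 6 it held 42.5 and 23.5 CPM in WT and 44.3 and 41.8 CPM in W330R. The log2 fold changes were -2.26 (SE 0.57, adjusted p = 0.00481, edgeR quasi-likelihood) and -2.41 (SE 0.57, adjusted p = 0.00478). Without WT day 6 library 2 the WT value was -1.94 and its adjusted p 0.0517. A single library stood apart, WT day 2 library 1 at 152 CPM beside 20.9 CPM in library 2. Its host gene Commd1 lay between 38.0 and 51.0 CPM before and between 26.9 and 39.0 CPM after differentiation. Zrsr1 overlaps Commd1 on the other strand and shares 8.19% of its 31-base sequences with other annotated genes, most with Commd1, and whether the counting used strand is not given in the sources used here.

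**Figure D2:**
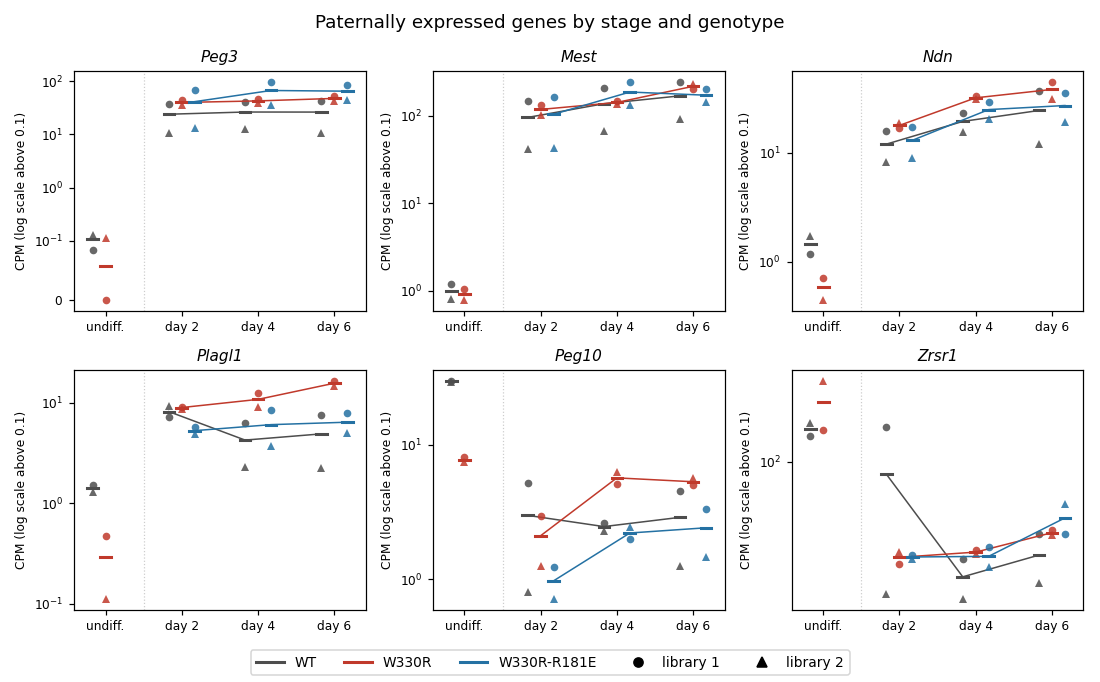
CPM of 6 paternally expressed genes by stage, on an axis that is logarithmic above 0.1, with a point per library (circle, library 1, triangle, library 2) and a bar at the mean of a condition. Lines join days 2 to 6 within a genotype, and the dotted line sets the undifferentiated libraries apart. Peg3, Mest and Ndn sit at 1.73 CPM or less before differentiation and at 8.29 CPM or more after it.

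Smaller steps were seen in other members. Igf2, the secreted growth factor, was at 0.335 and 0.211 CPM in undifferentiated WT and at 2.49 and 2.51 CPM on day 6 (log2 fold change 3.15, SE 0.70, adjusted p = 0.00203, edgeR quasi-likelihood). In W330R the pooled CPM of Igf2 was 8.33-fold higher on day 6 (exact 95% counting interval 3.16 to 31.1, adjusted p = 0.0122). Copg2, a coatomer subunit whose gene lies beside Mest, rose from 52.3 and 52.5 CPM to 115 and 117 CPM in WT (log2 fold change 1.08, SE 0.11, adjusted p = 4.22e-06) and by 0.65 (SE 0.11, adjusted p = 0.00047) in W330R. Mest and Copg2 overlap on opposite strands and share 22% and 17.6% of their 31-base sequences with other annotated genes, most with each other, so their reads could have been split by the counting. Of the Igf2 sequences, 63.1% also occur in other annotated genes, most in Gm49394, which has no row here.

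Trappc9, a subunit of a trafficking complex, rose from 44.9 and 44.3 CPM to 91.7 and 109 CPM in WT (log2 fold change 1.10, SE 0.14, adjusted p = 3.64e-05, edgeR quasi-likelihood). In W330R it went from 56.4 and 56.5 CPM to 78.0 and 76.7 CPM, which did not pass (log2 fold change 0.29, adjusted p = 0.124). Igf2r fell by 0.52 on the log2 scale in WT (SE 0.18, adjusted p = 0.0279), and its value in W330R was -0.44 (adjusted p = 0.0645). Rtl1 had no read in undifferentiated W330R and 78 reads on day 6, at least 8.02-fold more against a floor of 3 reads over the group (adjusted p = 0.00637). Peg12 rose by 1.2 on the log2 scale in WT (SE 0.45, adjusted p = 0.0409) and its pooled CPM was 23.6-fold higher in W330R (exact 95% counting interval 9.12 to 87.2, adjusted p = 9.83e-05). Ube3a fell by 0.83 in W330R (SE 0.27, adjusted p = 0.024).

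Because the undifferentiated libraries may differ from the rest by more than stage, days 6 and 2 were also compared. In WT 7 of 22 genes were called, all higher on day 6, beside 26.6% of all genes, 14.8% higher. In W330R 6 of 22 and in W330R-R181E 5 of 22 were called, again all higher, beside 25% and 23.2% of all genes, 13.6% and 12.9% higher. Igf2, Cd81, Sgce, Gnas and Dcn were called in every genotype, Slc22a18 in WT and W330R, and Peg12 in WT. Peg3, Mest and Ndn did not pass the test between these days. Ndn had a mean of 12.1 CPM on day 2 and 24.6 CPM on day 6 in WT, 17.9 and 38.4 CPM in W330R, and 13.1 and 27.3 CPM in W330R-R181E (adjusted p = 0.147, 0.114 and 0.129, edgeR quasi-likelihood). Mest had a mean of 95.7 and 169 CPM in WT, 118 and 218 CPM in W330R, and 104 and 172 CPM in W330R-R181E (adjusted p = 0.422, 0.401 and 0.499). Peg3 had log2 fold changes of 0.02, 0.13 and 0.57 in WT, W330R and W330R-R181E (adjusted p = 0.99, 0.921 and 0.616, edgeR quasi-likelihood).

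Dcn encodes decorin, a proteoglycan of the extracellular matrix. In WT it had 9.80 and 10.1 CPM before differentiation, 0.884 and 0.252 CPM on day 2, 8.34 and 2.83 CPM on day 4 and 30.2 and 14.1 CPM on day 6. The same dip and return was measured in W330R, from 12.5 and 11.8 CPM to 0.215 and 0.227 CPM on day 2 and to 21.9 and 20.4 CPM on day 6. Between day 2 and day 6 the log2 fold change was 5.27 (SE 0.84, adjusted p = 0.000541, edgeR quasi-likelihood) in WT, 6.41 (SE 0.90, adjusted p = 0.00034) in W330R and 6.57 (SE 0.86, adjusted p = 0.000225) in W330R-R181E. Dexamethasone and isobutylmethylxanthine were in the medium until day 2, and the part of the medium in this course was not tested.

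Cd81, Gnas and Sgce were also higher on day 6 than on day 2 in each genotype. Cd81 went from 205 and 198 CPM on day 2 to 372 and 370 CPM on day 6 in WT (log2 fold change 0.75, SE 0.11, adjusted p = 0.000294, edgeR quasi-likelihood), and its undifferentiated level was 325 and 319 CPM. For Gnas the rise was 0.75 in WT, 0.70 in W330R and 0.64 in W330R-R181E (SE 0.15 each, adjusted p = 0.00264, 0.00414 and 0.0081). Gnas shares 19.9% of its 31-base sequences with other annotated genes, most with Gm20721, which overlaps it on the other strand and has a row. Sgce rose by 1.52, 1.41 and 1.49 (SE 0.37, 0.37 and 0.38, adjusted p = 0.00853, 0.0128 and 0.0137). The pooled CPM of Igf2 in WT was 23.3-fold higher on day 6 than on day 2 (exact 95% counting interval 8.83 to 87.4, adjusted p = 0.00125). Impact, which restrains the kinase GCN2, went the other way in value, from 153 and 124 CPM on day 2 to 71.0 and 104 CPM on day 6 in WT, and did not pass the test (log2 fold change -0.77, adjusted p = 0.0695).

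**Figure D3:**
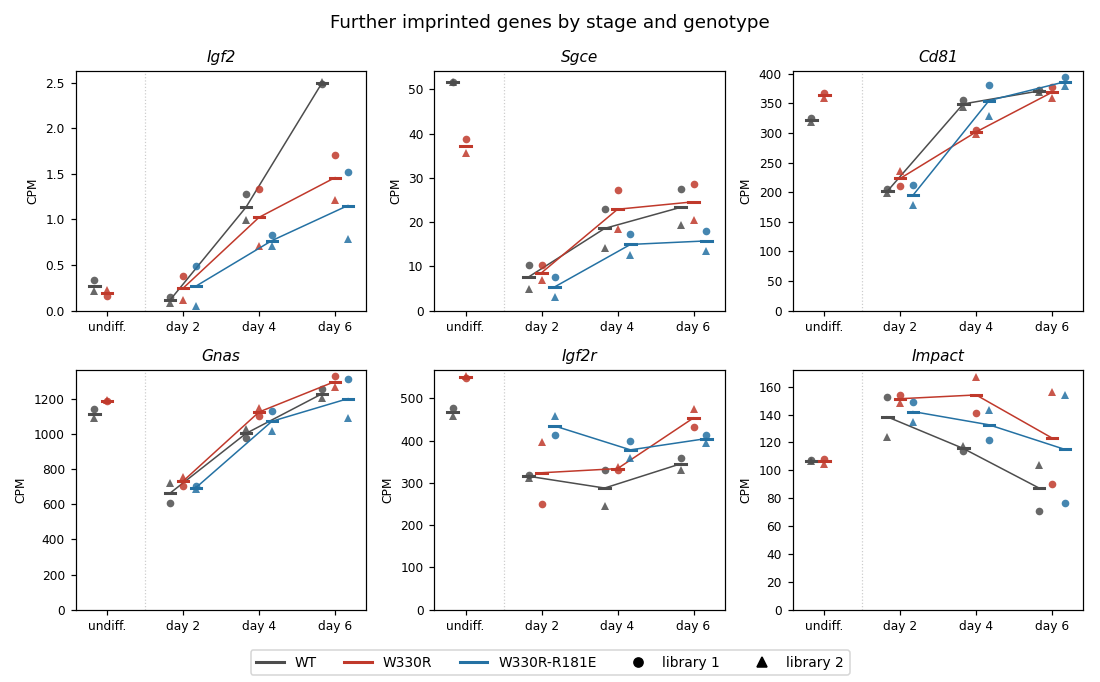
CPM of 6 imprinted genes by stage and genotype, with a point per library (circle, library 1, triangle, library 2), a bar at the mean and lines joining days 2 to 6. Cd81, Gnas and Sgce are lowest on day 2, and Igf2 in WT rises from 0.147 and 0.0842 CPM on day 2 to 2.49 and 2.51 CPM on day 6.

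Between W330R and WT, averaged over the 4 stages, 1 of 22 genes was called, beside 22.9% of all tested genes. The gene was Ube3a, a ubiquitin ligase that is imprinted in neurons. In undifferentiated cells both genotypes overlapped, with 27.3 and 32.7 CPM in WT and 30.5 and 32.6 CPM in W330R. On day 2 WT had 30.9 and 33.8 CPM and W330R 21.3 and 23.2 CPM, and on day 4 the values were 27.1 and 28.0 CPM against 18.4 and 18.5 CPM. On day 6 WT held 18.6 and 24.1 CPM and W330R 18 and 21.9 CPM, which overlap.

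The log2 fold change of Ube3a averaged over the 4 stages was -0.40 (SE 0.13, adjusted p = 0.042, edgeR quasi-likelihood), and over days 2 to 6 alone -0.55 (SE 0.15, adjusted p = 0.0154). The call over 4 stages stayed in 3 of 16 fits that left out 1 library, those without library 1 of WT on day 2, 4 or 6, and was lost in the other 13, with values between -0.46 and -0.34 and an adjusted p of at most 0.104. Ube3a shares 26.5% of its 31-base sequences with other annotated genes, most with Gm44560. In W330R-R181E the gene was at 23.6 and 27.0 CPM on day 2, 14.4 and 18.3 CPM on day 4 and 15.3 and 29.2 CPM on day 6, and it was not called against WT (log2 fold change -0.42, adjusted p = 0.0935) or against W330R (0.12, adjusted p = 0.65).

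The average over days 2 to 6 alone was added after seeing the data and was not repeated with a library left out. In it W330R differed from WT in 4 of the 22 genes, beside 29% of all genes. Besides Ube3a, Plagl1 was higher in W330R (log2 fold change 0.94, SE 0.30, adjusted p = 0.032, edgeR quasi-likelihood), Trappc9 lower (-0.37, SE 0.08, adjusted p = 0.00447) and Copg2 lower (-0.17, SE 0.06, adjusted p = 0.0482). On day 6 the 2 W330R libraries held 16.5 and 14.8 CPM of Plagl1, above all 4 libraries of WT (7.59 and 2.23 CPM) and W330R-R181E (7.87 and 4.97 CPM). That day taken by itself did not pass (log2 fold change 1.59, adjusted p = 0.0867). Trappc9 was the gene called on day 6, at 78.0 and 76.7 CPM in W330R and 91.7 and 109 CPM in WT (log2 fold change -0.51, SE 0.14, adjusted p = 0.0446), beside 7.54% of all genes. That call stayed only without WT day 6 library 1 (-0.69). Without library 2 of WT it was -0.32, and it was also lost without either W330R library and when the 2 conditions were fitted alone (adjusted p = 0.159).

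In undifferentiated cells 1 of 22 members was called, Peg12 (Frat3), of the FRAT family that binds GSK3, beside 1.75% of all genes (254 genes). WT held 1.26 and 1.22 CPM and W330R 0.0793 and 0.337 CPM, 44 reads in all against 4. The pooled CPM was 6.63-fold higher in WT (exact 95% counting interval 2.42 to 25.4, adjusted p = 0.0422, edgeR quasi-likelihood), and the call was lost when any of the 4 libraries was left out. With only the 4 undifferentiated libraries fitted, which lay closer together than those of other conditions, 9 of 22 members were called, 4 of them higher in W330R, beside 4194 genes in all. None of the 22 was called on day 2 or day 4, beside 3.06% and 6.14% of all genes. At an unadjusted p under 0.05 there were 2 and 5, and DESeq2 called 0 on day 2 and 2 on day 4.

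Between W330R-R181E and W330R, averaged over days 2 to 6, 5 of 22 genes were called, 3 higher and 2 lower in the double mutant, beside 17.2% of all genes (7.87% higher, 9.36% lower). The higher ones were Dcn, Ddc and Copg2 and the lower ones Peg12 and Rtl1. Dcn was at 1.31 and 0.134 CPM on day 2, 39.4 and 9.60 CPM on day 4 and 63.7 and 65.4 CPM on day 6 in W330R-R181E. The W330R libraries, at 0.215 and 0.227, 2.39 and 3.90, and 21.9 and 20.4 CPM, were below both double mutant libraries on days 4 and 6 and between them on day 2. The log2 fold change was 2.05 (SE 0.48, adjusted p = 0.00942, edgeR quasi-likelihood). It was 1.36 and no longer called without W330R-R181E day 2 library 1 (adjusted p = 0.224) and called in the other 11 fits without a library.

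Day 4 by itself gave a log2 fold change of 2.98 for Dcn (SE 0.69, adjusted p = 0.0429, edgeR quasi-likelihood), the call of that day, beside 1.91% of all genes. It stayed called only without W330R-R181E day 4 library 2 (3.65), was 1.66 without library 1, and was lost without either W330R library and when the 2 conditions were fitted alone (adjusted p = 0.182). On days 2 and 6 none of the 22 was called, beside 2.67% and 1.5% of all genes. At an unadjusted p under 0.05 there were 1 and 4, and DESeq2 called 0 on either day. Against WT the value of Dcn over days 2 to 6 was 1.26 and did not pass (adjusted p = 0.0915).

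Ddc, aromatic amino acid decarboxylase, lies beside Grb10. In W330R-R181E its levels were 0.654 and 0.0891 CPM on day 2, 3.84 and 0.749 CPM on day 4 and 3.32 and 1.02 CPM on day 6. In W330R every library of days 2 to 6 was between 0.0703 and 0.527 CPM, so the genotypes overlapped on day 2 and not on days 4 and 6. The log2 fold change was 2.01 (SE 0.61, adjusted p = 0.0363, edgeR quasi-likelihood). It was lost in 8 of 12 fits without a library, all but those without library 2 of W330R on day 4 or of W330R-R181E on day 2, 4 or 6, with values between 1.43 and 2.68. When only the 6 conditions compared were fitted, it did not pass either (adjusted p = 0.0698). Library 1 of the double mutant held more than library 2 on each day.

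Peg12 was called in the other direction and its libraries lay close together. It had 0.982 and 0.980 CPM on day 2, 1.60 and 1.63 CPM on day 4 and 2.15 and 2.26 CPM on day 6 in W330R-R181E. W330R had 1.77 and 1.70, 3.87 and 3.27, and 4.30 and 4.58 CPM on those days, with no overlap on any day. This gave a log2 fold change of -0.92 (SE 0.26, adjusted p = 0.0258, edgeR quasi-likelihood). It stayed between -0.96 and -0.90 whichever library was left out, while its adjusted p passed 0.05 in 9 of 12 such fits, all but those without library 2 of W330R on day 2 or 4 or of W330R-R181E on day 2 (highest 0.0598). WT held 1.55 and 0.589, 2.33 and 1.24, and 4.27 and 1.86 CPM. On each day its libraries lay on both sides of the double mutant and below both W330R libraries.

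Rtl1 was read rarely. In W330R its counts per library gave 0.322 and 0.151 CPM on day 2, 0.914 and 0.434 CPM on day 4 and 1.26 and 0.808 CPM on day 6. W330R-R181E had 0 and 0.0891, 0.192 and 0.0881, and 0.367 and 0.226 CPM, lower than both W330R libraries on each day. The pooled CPM was 3.85-fold higher in W330R on day 2 (exact 95% counting interval 0.82 to 36.1) and 4.65-fold higher on day 4 (1.74 to 15.6). The 3-day comparison was called (adjusted p = 0.0402, edgeR quasi-likelihood) and lost in 10 of 12 fits without a library, all but those without library 2 of W330R on day 4 or of W330R-R181E on day 2 (highest adjusted p 0.112). Of its 31-base sequences 6.76% occur in other annotated genes, most in Mir433.

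Copg2 differed by little. Its levels in W330R-R181E were 114 and 99.4 CPM on day 2, 134 and 135 CPM on day 4 and 115 and 140 CPM on day 6, and in W330R 104 and 97.3, 109 and 119, and 114 and 112 CPM. The genotypes overlapped on day 2 and not on days 4 and 6. Their log2 fold change was 0.23 (SE 0.06, adjusted p = 0.0202, edgeR quasi-likelihood). It did not pass without a filter on low counts (adjusted p = 0.116), with only the conditions compared (0.0788), or in 6 of 12 fits without a library, namely W330R day 2 library 2, day 4 library 1 and both of day 6, and W330R-R181E day 4 and day 6 library 2. Those 12 values were between 0.18 and 0.28.

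**Figure D4:**
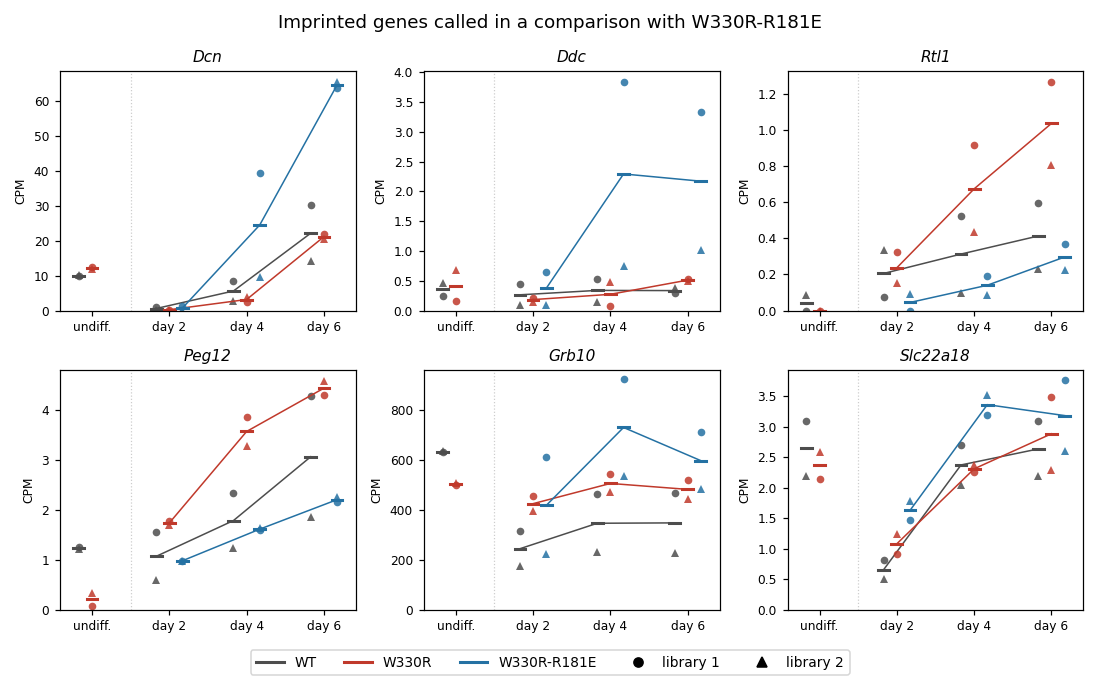
CPM of 6 imprinted genes called in a comparison with W330R-R181E, by stage and genotype, with a point per library (circle, library 1, triangle, library 2) and a bar at the mean. Dcn in W330R-R181E reaches 63.7 and 65.4 CPM on day 6, Peg12 in W330R-R181E lies below W330R on every day, and the 2 libraries of Ddc and Grb10 in W330R-R181E stand apart.

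Between W330R-R181E and WT over days 2 to 6, 2 of 22 genes were called, both higher in the double mutant, beside 9.57% of all genes, or 4.46% counting the higher ones alone. Grb10, the adaptor that inhibits insulin receptor signalling, had 609 and 225 CPM on day 2, 921 and 536 CPM on day 4 and 710 and 481 CPM on day 6 in W330R-R181E. WT had 313 and 174, 462 and 229, and 468 and 226 CPM, and overlapped the double mutant on day 2 but not on days 4 and 6. W330R had 452 and 395, 540 and 469, and 518 and 443 CPM, above both WT libraries on days 2 and 4. It overlapped the double mutant on each day, and the log2 fold change of the double mutant against W330R, 0.33, was not called. Averaged over days, the log2 fold change against WT was 0.82 (SE 0.24, adjusted p = 0.0444, edgeR quasi-likelihood). The call was lost in 6 of 12 fits without a library, those without library 2 of WT or library 1 of W330R-R181E on any day, with values from 0.56 to 1.01, and with only the conditions compared (adjusted p = 0.188).

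Slc22a18, a transporter of the Kcnq1ot1 cluster, had 1.47 and 1.78 CPM on day 2, 3.20 and 3.52 CPM on day 4 and 3.76 and 2.60 CPM on day 6 in W330R-R181E. In WT it had 0.811 and 0.505, 2.70 and 2.04, and 3.08 and 2.18 CPM, with overlap on day 6 alone. Over the 3 days the log2 fold change was 0.66 (SE 0.20, adjusted p = 0.0487, edgeR quasi-likelihood). It was lost in 9 of 12 fits without a library, all but those without library 1 of WT on day 2 or 6 or library 2 of W330R-R181E on day 6, with values from 0.56 to 0.74. Without a filter on low counts its adjusted p was 0.13 and with only the conditions compared 0.153. The value against W330R was 0.50 (adjusted p = 0.0905).

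By parental expression, the 12 tested paternally expressed genes had a median log2 fold change of -0.28 between W330R-R181E and W330R, with 3 above 0. For the 7 maternally expressed genes it was 0.22, with 7 above 0, beside a median of 0.01 over all genes. Those counts, 3 and 7, were the same with RLE size factors and with DESeq2. Against WT the medians of the double mutant were -0.22 and 0.06, or -0.17 for the paternally expressed genes with those at 3 reads or fewer set to that floor. Between W330R and WT over 4 stages they were -0.09 and -0.08, or 0.01 with that floor for the paternally expressed genes, of which 5 were above 0 with edgeR and 6 with DESeq2. That average covers stages of opposite sign. For the paternally expressed genes the median was -1.06 in undifferentiated cells (1 of 12 above 0, or -0.48 with the floor), 0.04 on day 2 (7 of 12), 0.44 on day 4 (9 of 12) and 0.40 on day 6 (10 of 12). For the maternally expressed genes it was 0.20 (6 of 7), -0.11 (2 of 7), -0.36 (1 of 7) and -0.16 (2 of 7). RLE size factors and DESeq2 gave the same signs of these medians. The comparisons share libraries, the genes passed a filter, and no test was made on these medians. The 2 groups rest on parental expression known from mouse tissues, which was not measured in these cells.

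**Figure D5:**
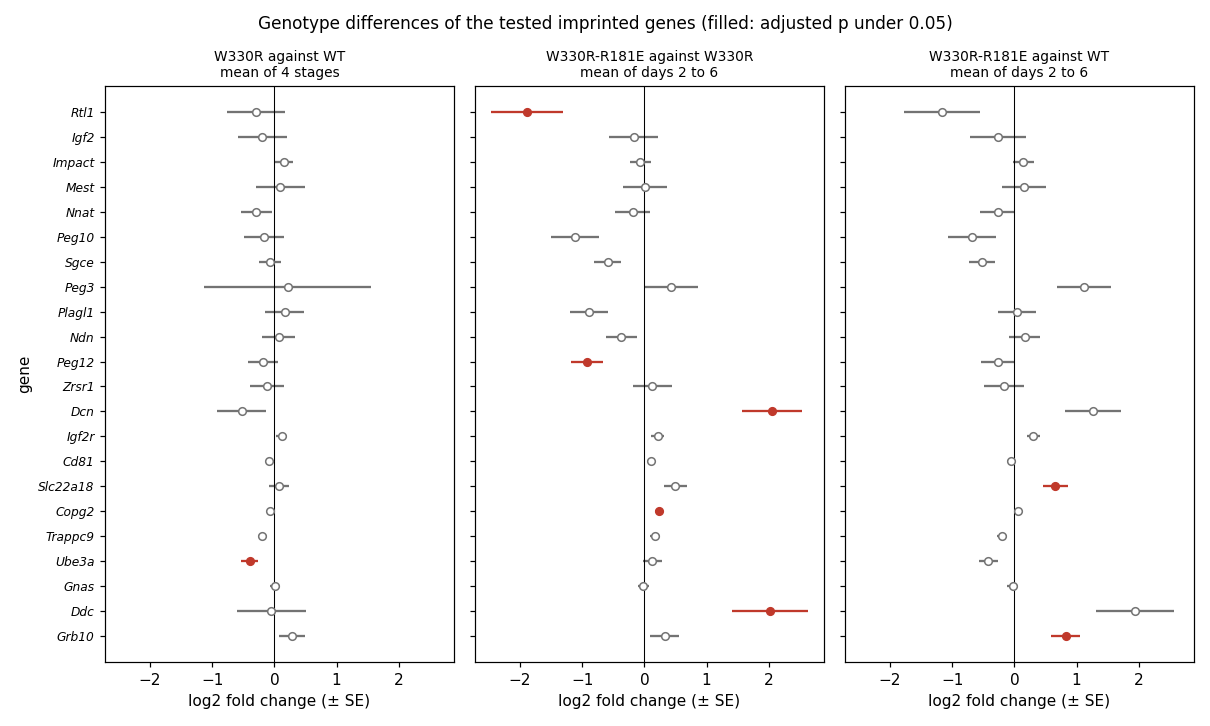
Log2 fold change with its standard error (bars) for the 22 tested imprinted genes in 3 genotype comparisons, from 1 edgeR quasi-likelihood fit to all 22 libraries. Filled points mark an adjusted p under 0.05, which are 1, 5 and 2 genes. In at least 1 comparison the values of Rtl1, Peg3, Peg12 and Igf2 rest in part on conditions with 3 reads or fewer in every library.

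How W330R differed from WT also depended on the stage for 3 genes, beside 3.88% of all genes. The difference between W330R and WT was larger on day 6 than before differentiation by 3.75 on the log2 scale for Plagl1 (SE 0.92, adjusted p = 0.037, edgeR quasi-likelihood) and by 3.12 for Peg12 (SE 0.75, adjusted p = 0.0352). For Trappc9 it was smaller, by -0.81 (SE 0.20, adjusted p = 0.0399). Plagl1 and Peg12 were low in undifferentiated W330R, with 7 and 4 reads over the group, and at or above WT on day 6. Plagl1 and Trappc9 stayed called in 1 of 8 fits without a library (without WT day 6 library 1) and Peg12 in 2 (that library or W330R undifferentiated library 2). With only these 4 conditions fitted, Plagl1 (adjusted p = 0.0553) and Peg12 (0.0594) did not pass, nor did Trappc9 without a filter on low counts (0.106).

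Libraries of the same condition differed in the members that carry these results. Peg3 in library 1 was 3.52, 3.16 and 3.86 times library 2 on days 2, 4 and 6 in WT and 5.18, 2.75 and 1.90 times in W330R-R181E, but 1.26, 1.23 and 1.21 times in W330R. Mest was 3.55, 3.07 and 2.66 times in WT and 3.92, 1.85 and 1.41 times in W330R-R181E, beside 1.32, 1.10 and 0.873 times in W330R. For Grb10 the ratios were 1.79, 2.02 and 2.07 in WT, 2.71, 1.72 and 1.48 in W330R-R181E and 1.15 to 1.17 in W330R.

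Among members above 3 reads in both libraries, 8 of 19 on day 2, 6 of 20 on day 4 and 9 of 22 on day 6 differed more than 2-fold between the WT libraries, beside 13.7%, 11.4% and 10.8% of all tested genes. In W330R the numbers were 2 of 21, 1 of 21 and 0 of 22, beside 6.8%, 5.86% and 4.63%, and in W330R-R181E 4 of 18, 4 of 21 and 3 of 21, beside 14.6%, 8.41% and 8.18%. In undifferentiated cells no member differed that much between the libraries of WT (19 members) or W330R (16), beside 2.3% and 2.47% of all tested genes. The counts of these WT and W330R libraries over all genes gave a chi-square of 3.40 and 3.10 per degree of freedom, beside 29.3 to 103 on days 2 to 6. What the library numbers share is not given in the labels.

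Other lists were read beside the imprinted genes, and their shares are to be set against those of all genes called in either direction. These were 22.9% between W330R and WT over 4 stages and 17.2% between W330R-R181E and W330R. Between W330R-R181E and WT the share was 9.57%. Of 14 factors that keep imprints or methylate DNA, 11 were tested. Zfp57, which binds methylated imprinting control regions, was higher in W330R than in WT averaged over the 4 stages (31.5 against 11.3 CPM, log2 fold change 1.16, SE 0.12, adjusted p = 5.29e-05, edgeR quasi-likelihood). Before differentiation the libraries of both genotypes lay between 6.98 and 11.6 CPM, whereas the means over days 2 to 6 were 39.5 CPM in W330R and 11.6 CPM in WT. Zfp57 was lower in W330R-R181E than in W330R over those days (14.8 against 39.5 CPM, -1.45, SE 0.14, adjusted p = 2.14e-05). Against WT the double mutant was not called for Zfp57 (0.27, adjusted p = 0.221). The other call between W330R and WT was Arid4b (0.22). Setdb1, a histone methyltransferase, was higher in W330R-R181E than in W330R (0.18) and WT (0.19), and Arid4a was lower in W330R-R181E than in W330R (-0.29). Dnmt3a reads, which do not tell the expressed mutant from the resident gene, lay between 308 and 330 CPM in undifferentiated cells and between 72.0 and 275 CPM on days 2 to 6, and were not called in the 3 averaged comparisons (adjusted p = 0.211, 0.542 and 0.0747).

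Of 30 host and neighbouring genes of the imprinted loci, 29 had a row and 21 were tested. Between W330R and WT 5 of the 21 were called, beside 22.9% of all genes, and all 5 were lower. They were Herc3, the host of Nap1l5 (log2 fold change -1.01), Slc22a2 (-1.11), Pon2 (-0.52), Nap1l4 (-0.51) and Wars (-0.41). Between W330R-R181E and W330R, beside 17.2% of all genes, 3 were higher, Cobl beside Grb10 (1.95), Slc22a2 (1.80) and Pon2 (0.78), and Pon3 was lower (-1.08). Between W330R-R181E and WT, beside 9.57% of all genes, 1 was higher, Fignl1 beside Ddc (1.03), and 3 were lower, Herc3 (-1.36), Wars (-0.43) and Ago2 (-0.31). No test was made on the direction of these genes as a list. Herc3 lay between 1.07 and 6.76 CPM while Nap1l5 in its intron had at most 1 read in a library.

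Adipocyte and mesenchymal markers moved in the same comparisons. Of 8 adipocyte markers 7 were tested, and 4 were lower in W330R than in WT, 4 higher in W330R-R181E than in W330R and 3 lower in W330R-R181E than in WT. Plin1 and Cidec had no read in any undifferentiated library, so the 4-stage comparison could not call them (SE 3871 and 1636.5). Their means were 36.8 and 215 CPM in W330R and 83.1 and 710 CPM in WT. Adipoq, at most 0.872 CPM before differentiation, had a log2 fold change of 0.16 beside means of 141 CPM in W330R and 366 CPM in WT. The summed level of the 8 adipocyte markers was 50.02 to 56.4 CPM in the undifferentiated libraries. On day 6 it was 4881 and 8812 CPM in WT, 1545 and 1775 CPM in W330R and 1784 and 3147 CPM in W330R-R181E. Of 6 mesenchymal markers 3 were higher in W330R than in WT and 4 lower in W330R-R181E than in W330R. The part of adipocyte formation in the differences of the imprinted genes was not tested. Macrophage, endothelial, epithelial, muscle and pluripotency markers had summed levels of at most 14.7, 22.8, 5.51, 1.51 and 1.41 CPM.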

How the data were processed

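Total RNA of 22 libraries, 2 per condition, was sequenced after NEBNext Ultra II library preparation. The deposited table holds raw counts per gene symbol, which the authors made before normalization, and the submitters' processing notes name kallisto, GRCm39 and DESeq2 1.40. The annotation, the strand setting and how transcripts were summed to genes are not given in the sources used here. Every column of the table was matched to a sample by genotype, day and replicate, or for undifferentiated cells by genotype and replicate, and 0 columns were left unused.

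Counts were analysed in R 4.3.3 with edgeR 4.0.16 and limma 3.58.1. Genes were kept by filterByExpr (minimum count 10, minimum total count 15), which left 14520 of 30170, and were scaled by TMM. A quasi-likelihood model with a term for each of the 11 conditions was fitted to all 22 libraries, and p-values were adjusted by Benjamini-Hochberg over all tested genes, with a threshold of 0.05. The procedure was tested on simulated data. CPM used the unscaled library totals, which ran from 8859501 to 47453908 with a median of 19355792. Where every library of a condition held 3 counts or fewer, pooled counts were compared by an exact 95% interval, and a fold against 0 reads used a floor of 3 counts over the group.

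Alternatives were RLE size factors, no filter on low counts, the replicate number as a block, only the conditions of a comparison, DESeq2 1.42.0, and each library left out. The comparison of W330R and WT over days 2 to 6 alone was added after seeing the data. It gave the values of Ube3a, Plagl1, Trappc9 and Copg2 over those days. The members and all lists were chosen with earlier results of these data known. Given in full were members called in an averaged genotype comparison and, among called members whose average log2 CPM was 1 or higher, the 6 that differed most between day 6 and undifferentiated WT cells. Promoter windows and motif counts used RefSeq on GRCm38.p6.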

Additional observations from a re-analysis of the deposited data

Results flagged for a closer look

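For 3 imprinted genes the difference between W330R and WT was not the same on day 6 as before differentiation, as the change itself was tested (the interaction term of the edgeR quasi-likelihood fit, Benjamini-Hochberg adjusted). The change was 3.75 on the log2 scale for Plagl1 (SE 0.92, adjusted p = 0.037), 3.12 for Peg12 (SE 0.75, adjusted p = 0.0352) and -0.81 for Trappc9 (SE 0.20, adjusted p = 0.0399). Leaving out 1 library gave values of 3.14 to 5.20 for Plagl1, 2.33 to 4.34 for Peg12 and -0.99 to -0.60 for Trappc9, with adjusted p-values up to 0.158, 0.192 and 0.215. Stage and any batch of the undifferentiated libraries cannot be told apart.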

How the results depend on the processing

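The number of imprinted genes called was within 1.5 times the reported number with RLE size factors in all 16 comparisons, and no named value changed sign under any alternative. The 20 named fold changes kept their side of the threshold with RLE, DESeq2 and the replicate block. No filter on low counts ended 4 of them and fitting only the conditions compared ended 9. For W330R against WT over 4 stages the number called went from 1 to 2 with DESeq2 and 4 over days 2 to 6 alone. For W330R-R181E against W330R over days 2 to 6 it went from 5 to 8 with DESeq2, and against WT from 2 to 5 with DESeq2, 4 without a filter and 0 with only those conditions. DESeq2 called 2 in W330R against WT on day 4 (from 0) and on day 6 (from 1), 2 in W330R-R181E against W330R on day 4 (from 1) and 5 for the change of the W330R difference with stage (from 3). With only the conditions compared, the number was 9 for W330R against WT in undifferentiated cells (from 1), 0 on day 6 (from 1), 0 for W330R-R181E against W330R on day 4 (from 1), 16 for day 6 against undifferentiated W330R (from 10), and for day 6 against day 2 it was 2 in WT (from 7), 10 in W330R (from 6) and 1 in W330R-R181E (from 5). The cause was not tested.

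The replicate block, which treats libraries of the same number as pairs, gave 2 instead of 1 for W330R against WT over 4 stages, 8 instead of 5 for W330R-R181E against W330R, 5 instead of 2 for W330R-R181E against WT, and 1, 3 and 2 for W330R against WT on days 2, 4 and 6 instead of 0, 0 and 1. It lost no call. For W330R against WT it added Trappc9 over 4 stages, Ube3a on day 2, Ube3a, Trappc9 and Cd81 on day 4, and Plagl1 on day 6. It added Peg10, Plagl1 and Sgce for W330R-R181E against W330R, and Peg3, Sgce and Ube3a for W330R-R181E against WT. For day 6 against undifferentiated cells, Grb10 and Ube3a were added in WT and Sgce in W330R. For day 6 against day 2, Impact and Ube3a were added in WT, Ndn and Peg12 in W330R, and Ndn in W330R-R181E. Peg10 was added for the change of the W330R difference with stage. Deviations of same-numbered libraries correlated above 0.1 in 27 of 36 pairs of conditions on days 2 to 6 (mean 0.215, from -0.0213 to 0.534) and in 0 of 19 pairs with an undifferentiated condition, so same-numbered libraries of days 2 to 6 tended to deviate together, but not in every pair of conditions, and the labels do not say what a number shares.

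Without 1 library the number called was 0 to 2 for W330R against WT over 4 stages, 1 to 5 for W330R-R181E against W330R and 0 to 4 against WT. For W330R against WT it was 0 to 0 in undifferentiated cells, 0 to 1 on day 2, 0 to 0 on day 4 and 0 to 2 on day 6. For W330R-R181E against W330R it was 0 to 1 on day 2, 0 to 1 on day 4 and 0 to 0 on day 6. For day 6 against undifferentiated cells it was 9 to 10 in WT and 7 to 9 in W330R, for day 6 against day 2 it was 6 to 10, 3 to 6 and 2 to 7 in WT, W330R and W330R-R181E, and for the change with stage 0 to 5. The number at 1 CPM or more was 21 to 22, with 21 without W330R day 6 replicate 1. With 2 libraries per condition and 3 counts or fewer in several of them, the values of Rtl1, Peg3, Peg12 and Igf2 are limited by depth.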
